A study of Homo sapiens with 6 samples.

Results

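The genes that detect double-stranded RNA and pass the alarm on were examined in NCI-N87 cells after silencing of SCAMP1. The set held 10 protein-coding genes, chosen by symbol from the 58735 genes of the deposited table. It was chosen with earlier results of these data known, and all 10 genes passed the expression filter. They comprise the cytosolic helicases DDX58 (RIG-I), IFIH1 (MDA5) and DHX58 (LGP2), the endosomal receptor TLR3, the kinase EIF2AK2 (PKR), the RNA editor ADAR, the adaptor MAVS, the kinase TBK1, and the transcription factors IRF3 and IRF7. NCI-N87 is a long-established line of gastric cancer cells. The 6 libraries fell into 2 groups of 3 samples labelled as biological replicates: shNC cells, named shCtrl in the study and carrying the empty lentiviral vector pSIH-H1-puro, and shScamp1 cells, named shS1#1 and carrying the same vector with 1 shRNA against SCAMP1. Both were stable populations infected in polybrene and selected in puromycin, so lentivirus, polybrene and drug were common to both groups. The control vector carried no shRNA, so the presence of an shRNA and the loss of SCAMP1 cannot be told apart in these groups. Separate infections are not stated for the samples within a group, so p-values measure the spread between these samples, which may be technical.

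Long double-stranded RNA is rare in the cytoplasm of healthy cells and is a hallmark of viral replication. RIG-I and MDA5 bind it and signal through MAVS on mitochondria, whereas TLR3 reads the endosome and signals through TICAM1 (TRIF). Both routes reach the kinases TBK1 and IKBKE, which phosphorylate IRF3 and IRF7, and these factors switch on type I and type III interferon genes. PKR acts in parallel and halts translation by phosphorylating eIF2alpha, while ADAR edits adenosines in cellular duplexes and so keeps them from being taken for foreign RNA. Several of these genes are themselves induced by interferon, and epithelial cells are among the cell types that use them.

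In shScamp1 cells, 6 of the 10 genes were higher at an adjusted p under 0.05 and none was lower, by limma on log2(FPKM + 0.1) with Benjamini-Hochberg adjustment over all 15556 genes tested. Of all genes tested, 8.82% were higher and 5.17% lower by the same rule. The genes that rose were DDX58, IRF7, DHX58, IFIH1, EIF2AK2 and TBK1, and the first 3 also passed the fold threshold of the study, an absolute log2 fold change above 1 (background 2.42% higher, 3.16% in either direction). TLR3, ADAR, MAVS and IRF3 did not pass the test. The median log2 fold change was 0.55 over the 10 genes and -0.02 over all genes tested. FPKM of the groups did not overlap for 8 of the 10 genes, all higher in shScamp1 cells, against 20.4% of all genes tested (41.4% in either direction), and overlapped for MAVS and IRF3. An exact permutation test of 3 samples against 3 cannot go below p = 0.1, so single genes were judged by the fit across all genes.

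**Figure D1:**
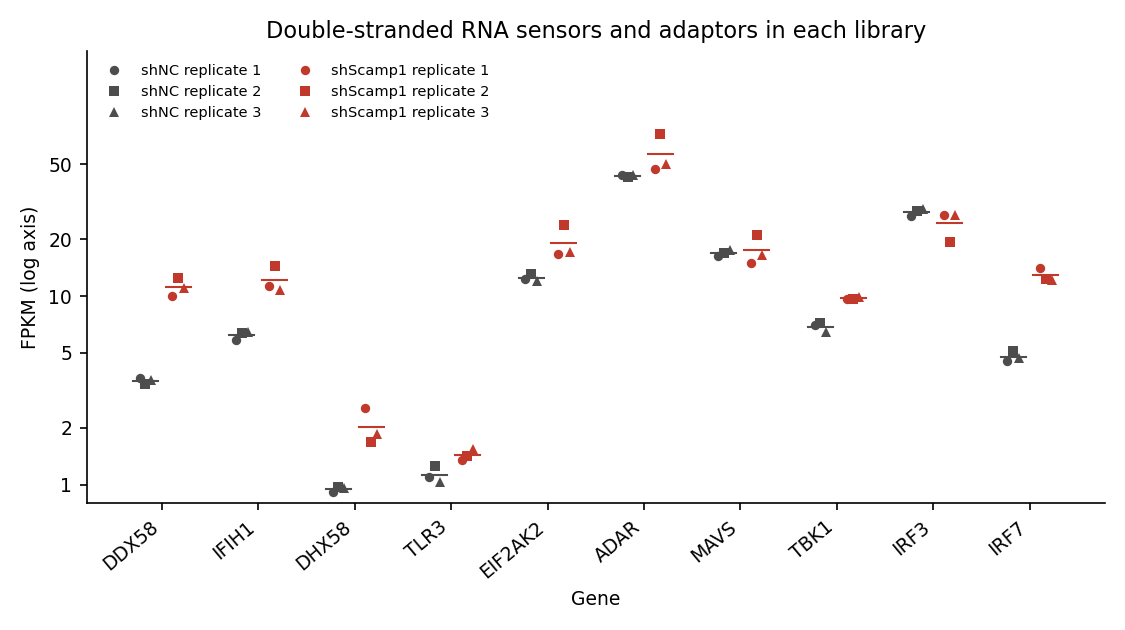
Expression of each of the 10 genes in every library, in FPKM on a log axis, with shNC in grey, shScamp1 in red, a marker shape for each replicate number and a line at the group mean. DDX58, IFIH1, DHX58, TBK1 and IRF7 stand clear of their shNC values in all 3 shScamp1 libraries, while shScamp1 replicate 2 sits apart from the other 2 for ADAR, EIF2AK2, MAVS and IRF3.

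The deposited FPKM values were whole multiples of the value of 1 read, which gave depths of 15064905 to 15988700 reads on genes in shNC libraries and 14311769 to 14667628 in shScamp1 libraries. Levels of SCAMP1, the target of the shRNA, were 12.6, 12.1 and 11.5 FPKM in shNC and 1.70, 1.37 and 1.99 FPKM in shScamp1 libraries. All 8 epithelial markers examined were above 1 FPKM in every library, and their sum was higher in shScamp1 (9250 to 10164 FPKM) than in shNC libraries (5536 to 5822 FPKM). The sum of 8 leukocyte markers was 1.83 to 2.09 FPKM in shNC and 1.59 to 2.93 FPKM in shScamp1 libraries, with only LYZ above 1 FPKM throughout. The sum of 7 fibroblast markers was 0.533 to 0.689 FPKM in shNC and 0.487 to 0.773 FPKM in shScamp1 libraries, with COL1A2, DCN, LUM and PDGFRA at 0, and that of 4 endothelial markers was 0.139 to 0.235 and 0.381 to 0.612 FPKM. The part of these markers in the results was not tested, and in bulk RNA fewer cells of a type and less RNA per cell cannot be told apart. One library stood apart from its group. In shScamp1 replicate 2, 46.9% of genes tested differed by more than 1.25-fold from the mean of the other 2 shScamp1 libraries, against 16.3% to 32.1% for each other library in its own group, and mitochondrial transcripts took 9.21% of its reads against 6.09% to 6.78% elsewhere. Results of the 10 genes and counts of the pathway lists are therefore given with and without this library. Without it, 7 of the 10 genes were higher and none lower (background 14.9% and 13.4%), the addition being ADAR.

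Promoter sequences of the RefSeq annotation (GRCh38.p14) are shown first for the 4 genes in which a match to an interferon-stimulated response element (ISRE) was found, because this element is bound by IRF and STAT complexes, and IRF3 and IRF7 are members of the set. A window of 250 bases before to 50 bases after the annotated start was held for 7 of the 10 genes, in 9 windows, 3 of them for ADAR, and the promoters of DHX58, IRF3 and IRF7 were not analysed here. The letters GAAA, any 2 bases and GAAA again were searched on both strands. They were found in the windows of IFIH1, TLR3 and EIF2AK2, against 3.57% of all 35116 windows and 4.38% of 27305 genes. A looser form allows any second base in the left GAAA and was chosen after the windows were seen. It was also found in DDX58, against 8.03% of all windows and 9.78% of genes. Excerpts with 40 bases on either side follow, 5′ to 3′ on the strand of the gene, with matched letters in capitals.
DDX58, chr9:32526351-32526440, minus strand: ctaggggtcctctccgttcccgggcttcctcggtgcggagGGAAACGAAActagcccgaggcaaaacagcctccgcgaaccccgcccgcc
IFIH1, chr2:162318656-162318883, minus strand: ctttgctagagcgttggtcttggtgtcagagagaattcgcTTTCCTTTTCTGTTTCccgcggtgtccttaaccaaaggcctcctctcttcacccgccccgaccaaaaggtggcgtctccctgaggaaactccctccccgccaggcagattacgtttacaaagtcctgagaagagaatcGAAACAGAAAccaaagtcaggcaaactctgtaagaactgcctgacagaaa
EIF2AK2, chr2:37156937-37157026, minus strand: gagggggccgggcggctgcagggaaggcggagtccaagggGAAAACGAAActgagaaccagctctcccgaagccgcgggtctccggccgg
TLR3, chr4:186069112-186069201, plus strand: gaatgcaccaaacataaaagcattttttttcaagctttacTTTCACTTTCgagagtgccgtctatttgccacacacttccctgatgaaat

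With position 0 at the annotated RefSeq start, the match began at -204 in DDX58, at -6 in EIF2AK2 and, on the reverse strand, at -4 in TLR3. For these genes the RefSeq start differs from the start of the gene on its own strand in GENCODE 29, whose coordinates are given below. Positions therefore depend on the annotation. IFIH1 held 3 matches, of which 2 overlapping ones began at -159 and -153 on the reverse strand and the last began at -21. The STAT element TTCNNNGAA, its own reverse complement, was found in TLR3 alone among the 7 genes, at -178 and -50. Its share was 7.66% of all windows and 9.38% of genes. No match to these letters was found in the windows of ADAR, MAVS and TBK1. The genes with a match thus included 3 that rose (IFIH1, EIF2AK2 and, by the looser form only, DDX58). The 1 other gene with a match, TLR3, did not pass the test, while TBK1 rose without one. A match is a stretch of letters and does not show that a factor was bound in these cells.

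**Figure D2:**
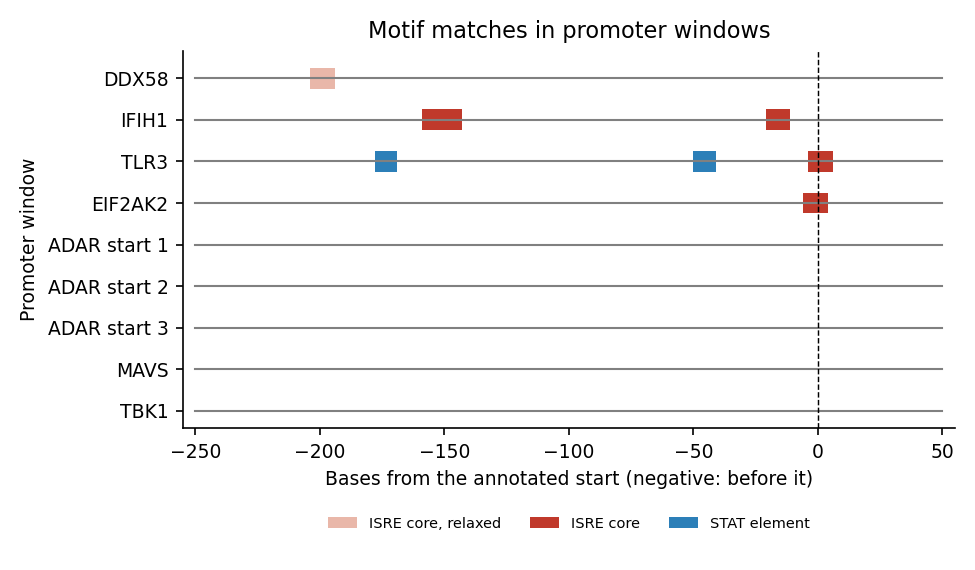
Matches to the ISRE letters (red, looser form in pale red) and the STAT element (blue) in the 9 promoter windows of 7 genes, on an axis of bases from the annotated start. IFIH1 holds 3 ISRE matches, EIF2AK2 and TLR3 hold 1 each next to the start, DDX58 holds 1 looser match at -204, and the windows of ADAR, MAVS and TBK1 hold none.

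Among the cytosolic helicases, the largest change was in DDX58, on chromosome 9 from 32455705 to 32526324 (GRCh38, minus strand), which encodes the sensor of short duplexes and of RNA with a 5′ triphosphate. It was at 3.68, 3.42 and 3.58 FPKM in shNC libraries and at 10.0, 12.5 and 11.1 FPKM in shScamp1 libraries, from 241 to 745 reads. All 3 shScamp1 libraries lay above all shNC libraries. The mean rose, at 3.56 ± 0.132 FPKM in shNC and 11.2 ± 1.24 FPKM in shScamp1 cells (mean ± SD, n = 3 each), a ratio of 3.15, and the log2 fold change was 1.62 (SE 0.10, limma adjusted p = 0.000510). Without shScamp1 replicate 2 it was 1.54 (limma adjusted p = 0.000136).

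IFIH1, on chromosome 2 from 162267079 to 162318703 (minus strand), encodes the sensor of long duplexes. Its FPKM were 5.88, 6.34 and 6.43 in shNC libraries and 11.4, 14.5 and 10.8 in shScamp1 libraries. The groups did not overlap, and shScamp1 replicate 2 was the highest library. The mean went from 6.22 ± 0.296 FPKM in shNC to 12.2 ± 1.99 FPKM in shScamp1 (SD, n = 3 each), and the log2 difference of 0.95 (SE 0.12, limma adjusted p = 0.00530) lay just under the fold threshold. It was 0.83 without shScamp1 replicate 2 (limma adjusted p = 0.000573).

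DHX58, on chromosome 17 from 42101404 to 42112733 (minus strand), encodes a helicase without the signalling domains of the other two, which modulates them. It was a rare transcript, covered by 56 to 143 reads per library, at 0.919, 0.968 and 0.960 FPKM in shNC and at 2.55, 1.69 and 1.85 FPKM in shScamp1 libraries. The groups did not overlap, but the shScamp1 values were spread widely, with replicate 1 the highest. The log2 fold change was 1.00 (SE 0.17, limma adjusted p = 0.0150), at the fold threshold itself. It was 1.12 without shScamp1 replicate 2 (limma adjusted p = 0.00685), and it was 0.63 with a pseudocount of 1, 0.93 with scaling to total reads and 0.98 with quantile normalization. The adjusted p was between 0.0513 and 0.0668 by limma in the 4 fits that left out 1 of the 3 shNC libraries or shScamp1 replicate 3.

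TLR3, on chromosome 4 from 186069152 to 186088069 (plus strand), was the other rare sensor, with 107 to 153 reads per library. It was at 1.10, 1.26 and 1.03 FPKM in shNC libraries and at 1.34, 1.41 and 1.56 FPKM in shScamp1 libraries, so that the groups were separate by a narrow margin. The log2 fold change of 0.33 did not pass the test (limma adjusted p = 0.173), and its 95% interval ran from -0.01 to 0.66. It was 0.34 without shScamp1 replicate 2 (limma adjusted p = 0.169). The endosomal sensors of single-stranded RNA, TLR7 and TLR8, had at most 3 reads in any library.

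**Figure D3:**
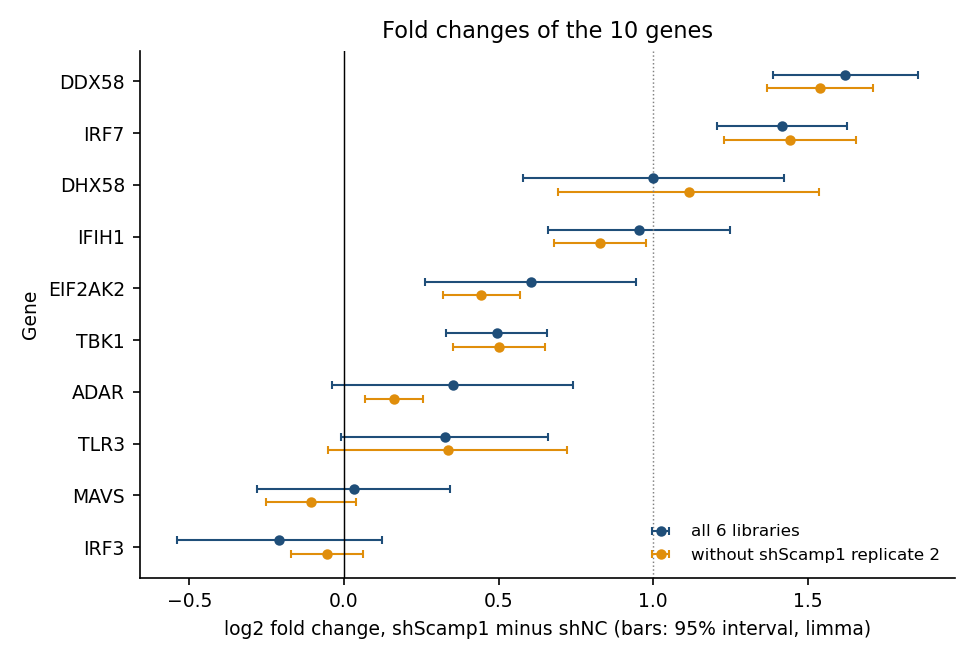
Log2 fold change of each gene (shScamp1 minus shNC), with 95% intervals from limma, for all 6 libraries (blue) and without shScamp1 replicate 2 (orange); the dotted line marks a log2 fold change of 1. The whole intervals of DDX58 and IRF7 lie above 1 with both sets of libraries, and those of TLR3, MAVS and IRF3 include 0 with both.

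EIF2AK2, on chromosome 2 from 37099210 to 37157065 (minus strand), encodes PKR. It was at 12.3, 13.02 and 12.0 FPKM in shNC libraries and at 16.7, 23.7 and 17.2 FPKM in shScamp1 libraries, from 1999 to 3487 reads. The groups did not overlap, and replicate 2 of shScamp1 was 1.40 times the mean of the other 2. With all libraries the mean rose, at 12.4 ± 0.513 FPKM in shNC and 19.2 ± 3.89 FPKM in shScamp1 cells (mean ± SD, n = 3 each), a ratio of 1.54, and the log2 difference was 0.60 (SE 0.14, limma adjusted p = 0.0389). Without that library the change was smaller and its p lower, with a ratio of 1.36 and a log2 fold change of 0.44 (limma adjusted p = 0.00253). The adjusted p was between 0.0737 and 0.137 by limma in the 4 fits that left out 1 of the 3 shNC libraries or shScamp1 replicate 3. GPATCH11 on the opposite strand shares 35 exonic bases with EIF2AK2, and the sources do not say whether counting used strand.

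ADAR, on chromosome 1 from 154582057 to 154628013 (minus strand), was the most abundant of the 10 genes. Its FPKM were 43.6, 42.9 and 43.9 in shNC libraries and 47.3, 72.1 and 49.9 in shScamp1 libraries. The groups did not overlap, although most of the difference in means lay in shScamp1 replicate 2, at 1.48 times the mean of the other 2. With all libraries the log2 fold change was 0.35 (95% interval -0.04 to 0.74, limma adjusted p = 0.198). Without replicate 2 it was 0.16 and passed the test (limma adjusted p = 0.0272), as a ratio of 1.12. ADAR is known for an interferon-inducible long form and a constitutive short form, and 1 value per gene does not separate them.

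MAVS, on chromosome 20 from 3846799 to 3876123 (plus strand), is the adaptor of both RIG-I and MDA5. It was at 16.4, 16.9 and 17.5 FPKM in shNC libraries and at 15.0, 21.0 and 16.5 FPKM in shScamp1 libraries, and the groups overlapped. The log2 fold change was 0.03 with all libraries (95% interval -0.28 to 0.34, limma adjusted p = 0.894) and -0.11 without shScamp1 replicate 2 (limma adjusted p = 0.230). Its sign thus depended on that library, and it was also negative with scaling to total reads and after removal of length trends, with no change detectable in any of these fits.

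TBK1, on chromosome 12 from 64451880 to 64502108 (plus strand), was the most even of the genes that rose. It was at 6.99, 7.16 and 6.47 FPKM in shNC libraries and at 9.63, 9.62 and 9.89 FPKM in shScamp1 libraries. The 3 shScamp1 libraries, replicate 2 included, lay close together and above all shNC libraries. The log2 fold change was 0.49 (SE 0.07, limma adjusted p = 0.00690), a ratio of 1.41, and it was 0.50 without replicate 2. An antisense gene that shares 308 exonic bases with it had at most 6 reads in any library.

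IRF7, on chromosome 11 from 612553 to 615999 (minus strand), encodes the factor that amplifies interferon production. It was at 4.54, 5.09 and 4.68 FPKM in shNC libraries and at 14.1, 12.4 and 12.2 FPKM in shScamp1 libraries, from 189 to 542 reads. The shScamp1 libraries lay far above the shNC libraries and close to each other. The mean rose, at 4.77 ± 0.289 FPKM in shNC and 12.9 ± 1.06 FPKM in shScamp1 cells (mean ± SD, n = 3 each), a ratio of 2.71, and the log2 difference was 1.42 (SE 0.09, limma adjusted p = 0.000547). Leaving out each library in turn gave values from 1.35 to 1.46.

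IRF3, on chromosome 19 from 49659569 to 49665875 (minus strand), is the constitutive counterpart of IRF7. It was at 26.7, 28.1 and 29.1 FPKM in shNC libraries and at 26.9, 19.5 and 26.9 FPKM in shScamp1 libraries. The groups overlapped, and shScamp1 replicate 2 was the lowest library. The log2 fold change of -0.21 did not pass the test (95% interval -0.54 to 0.12, limma adjusted p = 0.350), and it was -0.05 without replicate 2 (limma adjusted p = 0.442). BCL2L12 on the opposite strand shares 716 exonic bases with IRF3 and was well expressed, from 316 to 808 reads, so the level of IRF3 is uncertain if counting did not use strand.

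The deviations of shScamp1 replicate 2 were also read against gene length, because they went in both directions among the 10 genes. Over the 3889 longest genes tested (6563 to 44677 exonic bases) the median log2 deviation of this library from the other 2 was 0.18. It was -0.21 over the 3885 genes from 1763 to 3899 bases. ADAR (9691 bases, deviation 0.57), EIF2AK2 (10753 bases, 0.48) and MAVS (11771 bases, 0.42) belong to the first class, as does TLR3 (6724 bases, -0.03). IRF3 (3794 bases, -0.47), DHX58 (3843 bases, -0.34) and IRF7 (2628 bases, -0.08) belong to the second. IFIH1 (5108 bases, 0.38), DDX58 (4353 bases, 0.24) and TBK1 (4762 bases, -0.02) belong to the class of 3901 to 6562 bases, whose median was -0.01, and IFIH1 and DDX58 lay above it. The other shScamp1 libraries went the other way. Their medians were -0.14 (replicate 1) and -0.05 (replicate 3) over the longest genes, and 0.14 and 0.09 from 1763 to 3899 bases. For each of them the mean of the other 2 libraries includes replicate 2. After removal of each library's trend with gene length, an alternative chosen after the data were seen, the same number of genes was higher, 6 of 10, and the log2 fold change was 0.52 for EIF2AK2 and 0.28 for ADAR. The part of gene length in these values beyond this fit, and that of RNA quality, was not tested.

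**Figure D4:**
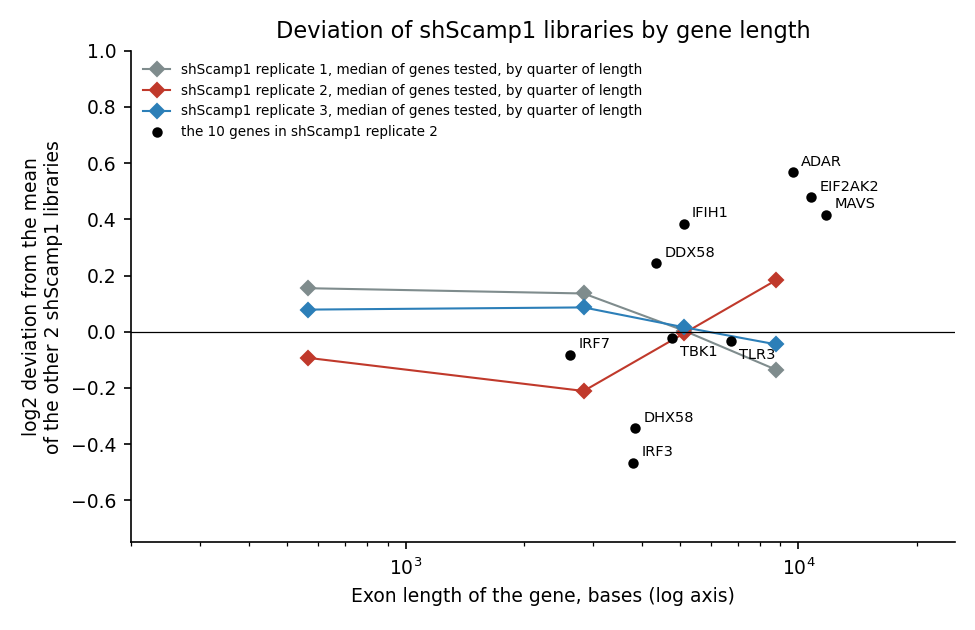
Log2 deviation from the mean of the other 2 shScamp1 libraries, against exon length on a log axis: diamonds are medians over the genes tested in 4 classes of length, placed at the median length, for each shScamp1 library, and black points are the 10 genes in shScamp1 replicate 2. The red line of replicate 2 goes from -0.21 in the second class to 0.18 among the longest genes, and of the 10 genes ADAR at 0.57 and IRF3 at -0.47 lie farthest from 0.

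FPKM is scaled to gene length, so FPKM values could be ordered across genes within a group. The length is the union of all annotated exons, which the transcripts present may not all hold, so the order may differ from that of transcript abundance. The level of IRF3, here and in the ratios below, is also uncertain if counting did not use strand. In shNC cells the order was ADAR, IRF3, MAVS, EIF2AK2, TBK1, IFIH1, IRF7, DDX58, TLR3 and DHX58, and the ranges of neighbours were separate at every step. In shScamp1 cells ADAR remained the highest at 56.5 ± 13.6 FPKM (SD, n = 3). IRF3, EIF2AK2 and MAVS followed with overlapping ranges, as did IRF7, IFIH1 and DDX58 at means of 12.9, 12.2 and 11.2 FPKM. IRF7, IFIH1 and DDX58 moved from below TBK1 to above it, and DHX58 moved above TLR3.

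Ratios within a library, chosen after the levels were seen, describe the same shifts without a scaling between libraries. IFIH1 stood at 1.60 to 1.86 times the FPKM of DDX58 in shNC libraries and at 0.976 to 1.16 times in shScamp1 libraries, and these ranges did not overlap. IRF3 stood at 5.52 to 6.22 times the FPKM of IRF7 in shNC libraries and at 1.57 to 2.21 times in shScamp1 libraries. The ratio of TBK1 to its relative IKBKE was 1.13 to 1.31 in shNC and 1.46 to 1.77 in shScamp1 libraries. ADAR stood at 3.29 to 3.65 times the FPKM of EIF2AK2 in shNC and at 2.83 to 3.04 times in shScamp1 libraries, again without overlap. The ratio of DDX58 to DHX58 overlapped between the groups, at 3.53 to 4.004 and at 3.93 to 7.39.

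To place these genes in their pathway, 174 other genes were listed in 8 groups by function, of which 148 passed the filter. The lists were chosen with earlier results of these data known, so their counts describe the lists and do not test them. At an adjusted p under 0.05, 36 of them were higher and 2 lower, against 8.82% and 5.17% of all genes tested, and 110 did not pass the test. The counts were 47 higher and 11 lower without shScamp1 replicate 2 (background 14.9% and 13.4%). They were 22 higher and 1 lower without shNC replicate 2, where the share of all genes was not taken. Each group is described here by its counts and its median, and genes named because their call differed without shScamp1 replicate 2 were chosen after their values were seen.

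**Figure D5:**
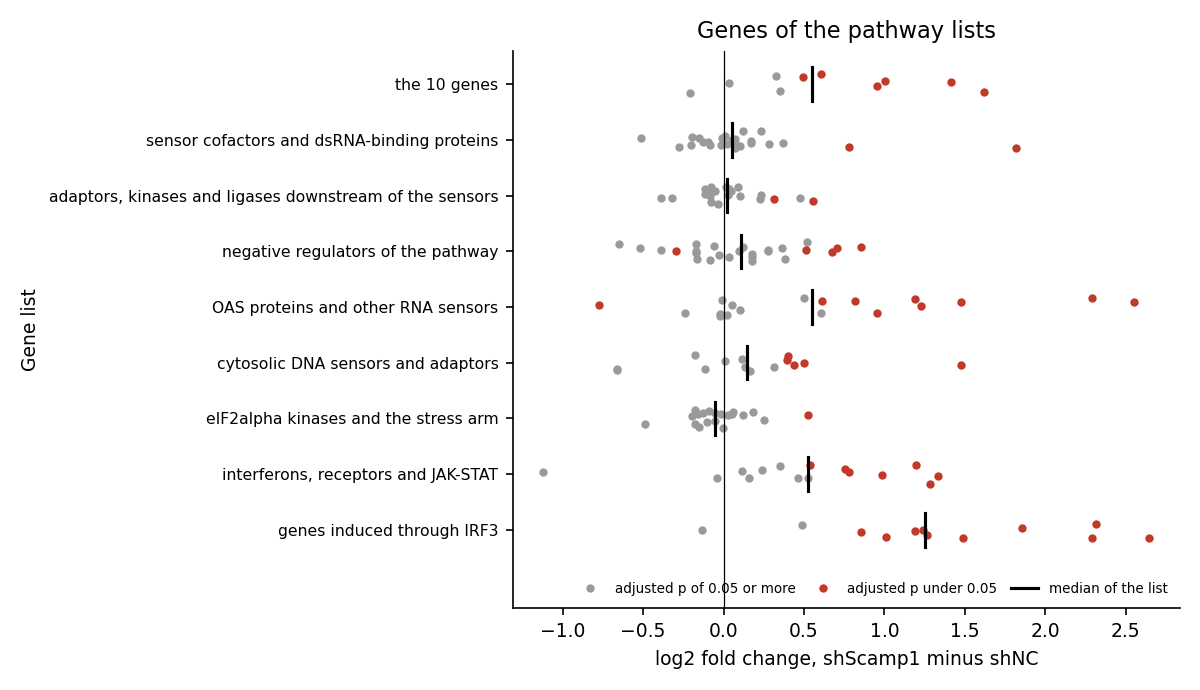
Log2 fold change (shScamp1 minus shNC) of every tested gene in the set of 10 and in the 8 pathway lists, with genes at an adjusted p under 0.05 in red, the others in grey and a bar at the median; a few genes stand in 2 lists. The medians are 1.25 for genes induced through IRF3, 0.55 for the list of oligoadenylate synthetases and other RNA sensors and 0.52 for the interferon list, and between -0.05 and 0.15 for the other 5.

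Proteins that assist the sensors or bind double-stranded RNA mostly did not pass the test, with 2 of 25 higher, against 8.82% of all genes tested, none lower and a median log2 fold change of 0.05. The counts without shScamp1 replicate 2 were 3 higher and 3 lower (background 14.9% and 13.4%), HMGB1 and ZCCHC3 among the latter. The genes that rose with all libraries were DDX60, a helicase reported to assist RIG-I-like receptors, which rose, at 3.61 ± 0.148 FPKM in shNC and 13.2 ± 2.84 FPKM in shScamp1 cells (mean ± SD, n = 3 each; log2 fold change 1.82, limma adjusted p = 0.00119), and the helicase ZNFX1 (log2 fold change 0.78, limma adjusted p = 0.0222). TRIM25, a ubiquitin ligase for RIG-I, was at 19.5 and 25.2 FPKM in the 2 groups and lay just outside the threshold (log2 fold change 0.37, limma adjusted p = 0.0503). Without shScamp1 replicate 2 it passed (limma adjusted p = 0.0123).

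The adaptors, kinases and ligases between the sensors and the transcription factors likewise mostly did not pass, with 2 of 22 higher, against 8.82% of all genes tested, none lower and a median of 0.02. With shScamp1 replicate 2 left out (background 14.9% and 13.4%), 4 were higher, with TANK and TRAF6 added, and 1 was lower (FADD). With all libraries the 2 higher genes were TAX1BP1, an autophagy receptor that is known to restrain rather than carry the signal (log2 fold change 0.55, limma adjusted p = 0.0140), and the kinase RIPK1 (0.31, limma adjusted p = 0.0478). TICAM1, the adaptor of TLR3, was at 5.20 ± 0.341 and 6.11 ± 0.264 FPKM (SD, n = 3 each; limma adjusted p = 0.107). TRAF3 was at 7.22 and 6.99 FPKM (limma adjusted p = 0.749) and IKBKE at 5.58 and 5.97 FPKM (limma adjusted p = 0.523). Whether TBK1 differed from IKBKE in its change was not tested beyond the ratio given above.

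In the list of negative regulators, 4 of 26 genes were higher and 1 lower, against 8.82% and 5.17% of all genes tested, with a median of 0.11. Without shScamp1 replicate 2 (background 14.9% and 13.4%), 5 were higher, with RBCK1 added, and 2 were lower, with NLRX1 added. TNFAIP3, the ubiquitin-editing enzyme A20, rose, at 2.78 ± 0.159 FPKM in shNC and 5.09 ± 0.125 FPKM in shScamp1 cells (mean ± SD, n = 3 each; log2 fold change 0.85, limma adjusted p = 0.00158). TRIM38 (0.70), OPTN (0.67) and TNIP1 (0.51), which binds A20, also rose. The gene that fell, PPP1CC, does not match the name of the list, since it encodes a phosphatase known to activate RIG-I and MDA5, and its log2 fold change was -0.30 (limma adjusted p = 0.0342). It was named after its value was seen.

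The list of the oligoadenylate synthetases and other RNA sensors held 8 higher and 1 lower of 18 genes tested, with a median of 0.55. The counts were the same without shScamp1 replicate 2. The shares of all genes tested were 8.82% higher and 5.17% lower, and 14.9% and 13.4% without that library. OAS2 rose, at 3.76 ± 0.117 FPKM in shNC and 22.8 ± 4.45 FPKM in shScamp1 cells (mean ± SD, n = 3 each; log2 fold change 2.55, limma adjusted p = 0.000365), and IFIT1 (2.29), OAS1 (1.47), OAS3 (1.23) and OASL (1.19) also passed the fold threshold. DHX33, named after its value was seen, is a helicase with a role in ribosome production that is also described as an RNA sensor, and it fell, at 8.42 ± 0.253 FPKM in shNC and 4.88 ± 0.345 FPKM in shScamp1 cells (mean ± SD, n = 3 each; limma adjusted p = 0.00219). ZBP1, a sensor of left-handed duplexes, had 1 to 5 reads in each library, too few for a test.

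Sensors of cytosolic DNA and their partners gave 5 higher and none lower of 14 tested, against 8.82% and 5.17% of all genes tested, with a median of 0.15. Leaving out shScamp1 replicate 2 (background 14.9% and 13.4%) gave 5 higher and 2 lower (HMGB2 and PYCARD). IFI16 rose, at 0.813 ± 0.0815 FPKM in shNC and 2.43 ± 0.0802 FPKM in shScamp1 cells (mean ± SD, n = 3 each; log2 fold change 1.48, limma adjusted p = 0.00121). TMEM173, the adaptor STING, rose less (log2 fold change 0.40, limma adjusted p = 0.0192), as did MYD88 (0.50), the RNA polymerase III subunit POLR3G (0.44) and LRRFIP1 (0.39). The DNA sensor CGAS was at 7.56 ± 0.471 and 8.50 ± 0.544 FPKM (SD, n = 3 each) and did not pass the test (limma adjusted p = 0.226).

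The increase of EIF2AK2 was set beside the other kinases of eIF2alpha, none of which passed the test with all libraries. EIF2AK1 was at 34.7 and 31.8 FPKM (log2 fold change -0.13, limma adjusted p = 0.235), EIF2AK3 at 2.78 and 2.78 FPKM (limma adjusted p = 0.976) and EIF2AK4 at 5.42 and 5.69 FPKM (limma adjusted p = 0.822). EIF2AK1 passed the test as lower without shScamp1 replicate 2 (limma adjusted p = 0.0354). EIF2S1, which encodes eIF2alpha, was at 28.8 and 27.7 FPKM (limma adjusted p = 0.619). Of the 20 genes of this list 1 was higher with all libraries, against 8.82% of all genes tested, and none was lower. The higher gene was PPP1R15A, which directs a phosphatase to eIF2alpha (log2 fold change 0.53, limma adjusted p = 0.0466). Without shScamp1 replicate 2 (background 14.9% and 13.4%), 4 were higher, with DDIT3, EIF2S3 and G3BP2 added, and 2 were lower (ATF4 and EIF2AK1).

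Transcripts of interferons themselves were close to the limit of detection. IFNB1 had 1, 0 and 0 reads in shNC and 1, 0 and 1 reads in shScamp1 libraries. IFNL1 had 1, 1 and 0 reads in shNC and 12, 0 and 5 reads in shScamp1 libraries, and IFNL3 had none in shNC and 4, 3 and 0 reads in shScamp1 libraries. IFNL2 had at most 1 read in any library. For IFNA1 the reads were 1, 2 and 6 in shNC and 8, 9 and 9 in shScamp1 libraries. Summed over IFNB1, IFNA1, IFNA2, IFNK and the 3 lambda genes, the reads were 3, 4 and 6 in shNC and 27, 13 and 15 in shScamp1 libraries. These sums did not overlap, and 20.4% of all genes tested were likewise separate with shScamp1 higher. The genes summed share sequence, and their reads were too few to test. The exception was IFNE, an epithelial type I interferon, which rose, at 1.196 ± 0.286 FPKM in shNC and 3.15 ± 0.517 FPKM in shScamp1 cells (mean ± SD, n = 3 each; log2 fold change 1.34, limma adjusted p = 0.00942) on 22 to 75 reads per library.

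In the list of interferons, receptors and their signalling proteins, 7 of 15 genes tested were higher and none lower, with a median of 0.52. The shares of all genes tested were 8.82% higher and 5.17% lower. With shScamp1 replicate 2 left out, 10 were higher and none lower (background 14.9% and 13.4%), with IRF1, IRF2 and IFNGR2 added. Of the 25 genes listed, 10 did not pass the filter, 7 of them interferons. The receptor chains IFNAR1 (log2 fold change 0.78, limma adjusted p = 0.00903) and IFNLR1 (0.76, limma adjusted p = 0.0106) rose. Among the other receptor chains listed, IFNAR2 (means of 0.195 FPKM in shNC and 0.272 FPKM in shScamp1) and IL10RB (0.134 and 0.168 FPKM) were below the filter and not tested. STAT2, a transcription factor downstream of these receptors, rose to 11.8 ± 0.726 FPKM, against 5.07 ± 0.0879 FPKM in shNC cells (mean ± SD, n = 3 each; log2 fold change 1.197, limma adjusted p = 0.000510). IRF9, the partner of STAT2 in the ISRE-binding complex, was at 0.754 and 1.13 FPKM (limma adjusted p = 0.111) and IRF1 at 1.81 and 2.56 FPKM (limma adjusted p = 0.0811), and neither passed the test. IRF1 passed without shScamp1 replicate 2 (log2 fold change 0.60, limma adjusted p = 0.00758). USP18, which turns off the receptor, rose (0.99, limma adjusted p = 0.00169).

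Of 17 genes commonly induced through IRF3, 12 passed the filter, of which 10 were higher, against 8.82% of all genes tested, and none lower, with a median of 1.25. Without shScamp1 replicate 2 (background 14.9% and 13.4%), 11 were higher and none lower, with ATF3 added. CXCL9, CXCL10, CXCL11, IFNB1 and IFNL1 had at most 12 reads in any library and were not tested. RSAD2, at a mean of 0.434 FPKM in shNC and 3.22 FPKM in shScamp1 cells, passed the filter only through the shScamp1 libraries. RSAD2 (log2 fold change 2.65), IFIT3 (2.32), IFIT1 (2.29) and ISG15 (1.86) rose most, and ISG15 was the most abundant at 121 ± 2.32 and 438 ± 29.4 FPKM (SD, n = 3 each; limma adjusted p = 0.000168). Many of these genes respond to interferon as well as to IRF3, so the list does not separate the 2 routes.

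Across the 6 libraries, the genes whose log2 FPKM followed DDX58 most closely were FAM214A, LMO7, NCEH1, GNE and CAPN8, with Pearson's r of 0.999 to 1.00 among 10569 other protein-coding genes at a mean of at least 1 FPKM. The 6 points share 2 groups, and r was above 0.95 for 834 genes, so this is a description of the split between groups. Within the set, r with DDX58 was 0.977 for IFIH1, 0.976 for IRF7, 0.974 for TBK1, 0.918 for EIF2AK2, 0.904 for DHX58, 0.850 for TLR3, 0.751 for ADAR, 0.209 for MAVS and -0.63 for IRF3.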

How the data were processed

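RNA of NCI-N87 cells was sequenced in 3 shNC and 3 shScamp1 libraries. The authors deposited FPKM per gene and library, with sequencing and analysis by Novogene; the submitters' processing notes name HISAT2 2.0.5, featureCounts 1.5.0-p3, DESeq2 1.20.0 and hg38, without their roles, and no strand setting is given. Coordinates and lengths of all 58735 genes equalled GENCODE 29. FPKM times length was a whole multiple (tolerance 0.05) of 1 step per library for 100% of values above 0; the step equalled that of median-of-ratios size factors (0.914 to 1.11), so no further scaling was applied.

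Expression was tested with limma 3.58.1 in R 4.3.3 on log2(FPKM + 0.1), with a mean-variance trend, for 15556 genes at a mean of at least 0.5 FPKM, adjusted by Benjamini-Hochberg; fold changes on this scale understate those of low genes. The fit was tested on simulated data. The members, lists and tests were chosen with earlier results of these data known. Genes named are the 10 members, a fixed roster of pathway genes, up to 4 further passing genes per list by absolute log2 fold change, and the 5 most like DDX58. Promoters came from RefSeq (GRCh38.p14); a planned comparison of proteins was not made. Alternatives covered pseudocount, filter, scaling, trend, gene type, voom, block, unadjusted p, each library left out and, added later, removal of length trends. Python 3.11.15, pandas 2.3.3 and numpy 2.4.6 were used. Some listed genes are not reported here.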

Additional observations from a re-analysis of the deposited data

How the results depend on the processing

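Under 18 alternatives, DDX58, IFIH1, IRF7 and TBK1 kept their direction and passed the threshold in each, and leaving out single libraries put SCAMP1 at -2.90 to -2.65. Between 4 and 7 of the 10 genes were higher and none was lower in any of these fits, and 2 or 3 passed the fold threshold. The share of all genes tested was taken only with all libraries (8.82% higher, 5.17% lower) and without shScamp1 replicate 2 (14.9% and 13.4%). EIF2AK2 lost its call in 8 alternatives and DHX58 in 5. MAVS reversed with scaling to total reads (-0.044), without shScamp1 replicate 2 (-0.11, the lowest of -0.11 to 0.14 over the libraries left out) and after removal of the length trend (-0.066), without passing a threshold in any; the cause was not tested.

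Among the pathway genes, 36 were higher and 2 lower. The lower count was 1 with no filter or with the replicate block, 4 with total-read or quantile scaling, 6 with voom or with the length trend removed, 7 with protein-coding genes only and 13 at an unadjusted p; leaving out each library gave 1 to 11 lower, most without shScamp1 replicate 2, and 22 to 47 higher, fewest without shNC replicate 2. The cause of these shifts was not tested. The labels do not say whether samples with the same replicate number were prepared together. Deviations of same-numbered samples correlated at -0.04, 0.03 and 0.07, and those of differently numbered samples at -0.08 to 0.05. Values this small do not show whether the numbers pair the samples. With the number as a replicate block, 4 of the 10 genes and 25 pathway genes were higher. Counts under the alternatives, except that without shScamp1 replicate 2, have no share of all genes beside them.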
